A study of Homo sapiens with 10 samples.

Results

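NB4 is a human acute promyelocytic leukaemia cell line, and its response to the compound JOA was followed by comparing 2 control libraries with 2 libraries from cells kept in 1 µM JOA. The members are the 4 NB4 libraries of the 10 in the series, and all of them enter every comparison. The control cells carry the label Control and no dose, the treatment text gives 48 hours, and all libraries come from 1 line, so what differs between the groups by label is the compound. The source label of the treated libraries names I13, whereas their titles, agent and treatment text name JOA, and they are called JOA here. JOA is a code name, and no label says what it is made of. Nothing states that the libraries of a group came from separate cultures, so p-values measure the spread between these libraries, which may be technical.

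Promyelocytes are the stage of neutrophil formation at which the primary granules are filled with proteases and peroxidase. NB4 cells carry the PML-RARA fusion, which blocks maturation past that stage, and retinoic acid is known to release the block. In maturing neutrophils the primary granule genes are switched off, while genes for later granules, the respiratory burst, integrins and other surface receptors come on. Defining genes of this stage were present: MPO, the peroxidase of the primary granules, was at 7983 and 7693 TPM (a length-corrected share of each library) in the controls, and the granule proteins AZU1, CTSG and PRTN3 were at 141.1 TPM or more there. ELANE, the neutrophil elastase gene, was much lower, at 1.00 and 1.59 TPM.

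TPM values are scaled to the same total in every library, so levels of different genes may be set side by side but the depth of sequencing cannot be read from them. The libraries listed between 12571 and 12866 genes at 1 TPM or more. On log2(TPM + 1), control 1 and control 2 correlated at 0.986 across genes and so did JOA 1 and JOA 2, while pairs of 1 control and 1 JOA library gave 0.981 to 0.986, so control 1 and JOA 1 were as alike as 2 libraries of a group. The 13 mitochondrially encoded genes in the table held 14.6% and 16.4% of TPM in the controls and 11.2% and 13.1% with JOA (15.5% ± 1.29 against 12.2% ± 1.38, SD, n = 2 each). The groups did not overlap, and the exact two-sided permutation test gave p = 0.333, the smallest p that 2 libraries against 2 allow. The median gene was 0.085 higher with JOA on the log2 scale, and 0.037 higher with mitochondrial transcripts removed and the rest rescaled.

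Of 12949 genes tested with limma on log2(TPM + 1), 1 passed at an adjusted p under 0.05 (0.00772%), and it was CXCL10. At an unadjusted p under 0.05 there were 1375 genes (10.6%), of which 1061 were higher with JOA (8.19%) and 314 lower (2.42%). With the libraries rescaled by median ratios the same threshold gave 595 higher and 589 lower, so the excess of higher genes depends on the scaling. Both JOA libraries lay above both controls for 4206 genes (32.5%) and below both for 1428 (11%). The log2 change was positive for 66.2% of all genes, with a median of 0.085. These shares are the background against which every list below is read. Lists are described by counts and medians, with no test of a list, and members counted as higher or lower are those at an unadjusted p under 0.05.

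**Figure D1:**
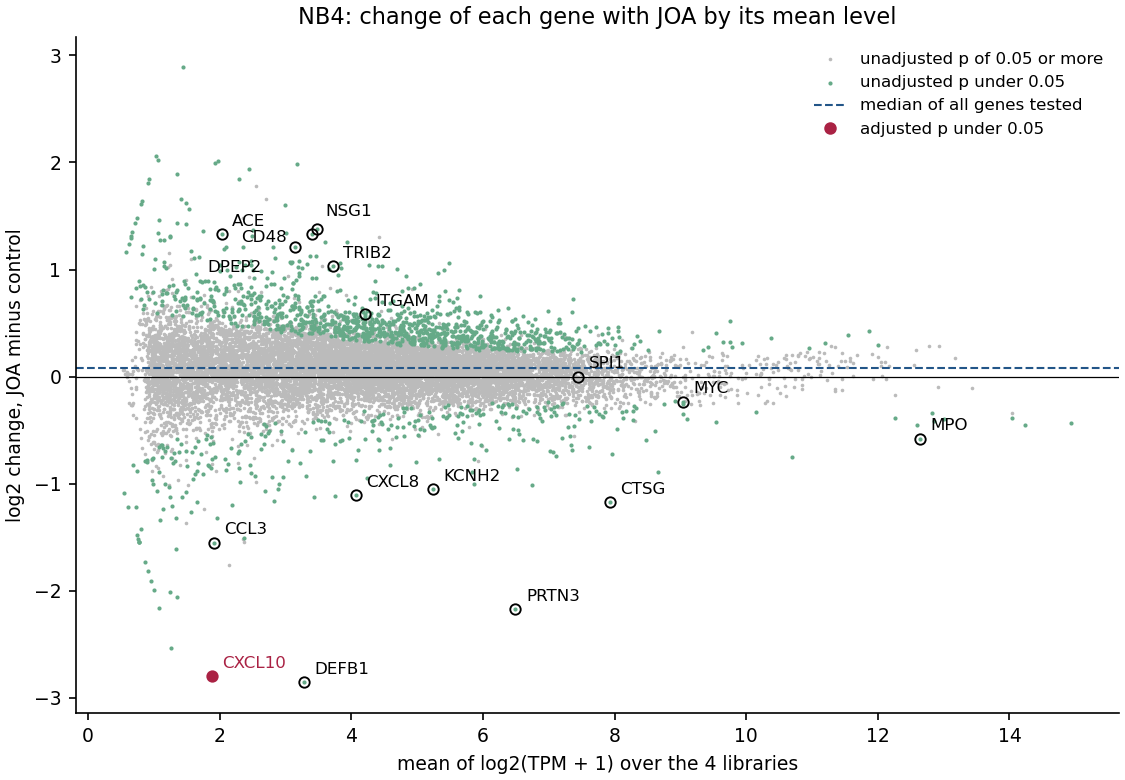
Log2 change of each of 12949 genes (JOA minus control, vertical axis) against its mean log2(TPM + 1) over the 4 libraries (horizontal axis), with green points at an unadjusted p under 0.05 and rings on some of the genes named in the text. CXCL10, the filled point at -2.80, is the 1 gene with an adjusted p under 0.05, and DEFB1 at -2.85 and PRTN3 at -2.17 are also far from 0 but did not pass.

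CXCL10 encodes a chemokine that draws T cells through the receptor CXCR3 and is induced by interferons. It was at 9.11 and 8.27 TPM in the controls and at 0.585 and 0.224 TPM with JOA. Both treated libraries were far below both controls, and CXCL10 fell by 2.80 on the log2 scale (SE 0.24, adjusted p = 0.0476). The gene lies on chromosome 4 from 76021117 to 76023497 on the minus strand (GRCh38), and all of its TPM was assigned to 1 protein-coding transcript, CXCL10-201. The call did not hold under median-ratio scaling (adjusted p = 0.0581), with no filter on low genes (adjusted p = 0.330) or with a pseudocount of 0.1, where the change was -4.22 (adjusted p = 0.132). It was also lost in most of the fits that left out 1 library. The change was -2.73 without control 1, -2.86 without control 2, -2.98 without JOA 1 and -2.61 without JOA 2. Over the alternatives with all 4 libraries and no replicate block, the adjusted p ranged from 0.00137 to 0.330.

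The bases before the start of CXCL10 are shown because it is the gene that passed, and because kappa B sites and interferon response elements are the known inputs to its promoter. Promoter sequences are the 250 bases before each start from RefSeq on GRCh38.p14, read 5′ to 3′ on the strand of the gene. CXCL10 covers chr4:76023498-76023747 on the minus strand, with matches in capitals.
CXCL10: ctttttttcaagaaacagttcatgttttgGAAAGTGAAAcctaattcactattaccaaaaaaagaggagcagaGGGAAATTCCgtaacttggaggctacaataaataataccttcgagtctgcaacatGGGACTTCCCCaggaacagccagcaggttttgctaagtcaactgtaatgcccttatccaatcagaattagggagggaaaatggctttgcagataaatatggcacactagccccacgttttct
Searched on both strands, GAAANNGAAA, a core of the interferon response element, was found 221 to 212 bases before the start. GGGNNNNNCC, the outline of a kappa B site, was found at 177 to 168 and again at 122 to 112, where 3 matches on the 2 strands overlap. The interferon core was in 3.07% of 27305 promoters of this length and the kappa B outline in 53.7% of them, so the second is common by its letters alone. A match describes the sequence and says nothing of binding.

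Among the other chemokine ligands, CCL3 and CXCL8 were lower with JOA without passing the test. CCL3, a macrophage chemokine, was at 5.50 and 5.40 TPM in the controls and 1.22 and 1.18 TPM with JOA (log2 change -1.55, SE 0.21, adjusted p = 0.0954). It passed with protein-coding transcripts alone, at -1.65 (adjusted p = 0.0133). It did not pass under median-ratio scaling (adjusted p = 0.15), with no filter (adjusted p = 0.497) or with a pseudocount of 0.1 (adjusted p = 0.147). Nor did it with genes under 5 TPM left out (adjusted p = 0.107) or without the variance trend (adjusted p = 0.0665). The values within each group were almost equal, but CCL3 has near-identical copies in the genome, so its value is uncertain. CXCL8, which attracts neutrophils, was at 19.4 and 28.7 TPM against 9.18 and 11.8 TPM (log2 change -1.11, adjusted p = 0.196). CCL5 was at 56.6 and 64.7 TPM against 41.0 and 52.8 TPM, a smaller difference. Receptors differed among themselves: CCR1, a receptor for CCL3 and CCL5, was at 4.92 and 4.11 TPM in the controls and 7.26 and 8.19 TPM with JOA, whereas CXCR4, the receptor that holds myeloid cells in the marrow, was at 65.8 and 69.9 TPM against 60.1 and 49.3 TPM. Of 23 chemokines and receptors listed, 13 passed the filter. The 7 ligands had a median log2 change of -0.37, with 1 higher and 4 lower. The 6 receptors had a median of 0.15, with 1 higher and 1 lower. Over all genes 8.19% were higher and 2.42% lower. The 1 higher ligand, CXCL16, passed the filter through the JOA libraries alone, at 0.698 and 0.294 against 1.13 and 1.84 TPM. CXCL10, among the lower ligands, passed it through the controls alone, so these counts rest partly on the filter.

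NF-kB dimers drive inflammatory genes and are held back by inhibitors that NF-kB itself induces. Of 20 genes in this list 18 were tested, 16 had a negative change, 5 were lower and 0 higher, and the median was -0.22. Over all genes 2.42% were lower and 8.19% higher. All 5 inhibitors and all 5 factors tested were on the negative side, though NFKB1 and REL lay at 0.00 to 2 decimals. NFKBIE, an inhibitor, was at 22.6 and 28.3 TPM in the controls and 16.5 and 16.4 TPM with JOA (log2 change -0.59, adjusted p = 0.291). RELB and NFKB2, partners in the non-canonical pathway, were at 7.30 and 6.73 against 4.46 and 4.798 TPM and at 25.1 and 23.3 against 19.2 and 18.4 TPM. TNFAIP3, which ends NF-kB signals, was at 24.2 and 31.1 TPM against 18.1 and 21.5 TPM. In each of these 4 genes both JOA libraries lay below both controls, as in 9 of the 18, and no member had both above. Over all genes 11% lay below and 32.5% above. BIRC3, 1 of the 9, passed the filter through the controls alone, at 1.77 and 1.60 against 0.753 and 0.987 TPM. The RELA subunit was at 97.0 and 91.3 TPM against 92.5 and 84.7 TPM, with overlapping groups. Of 16 list members with a promoter in the table, 12 held the kappa B outline, which 53.7% of all promoters held.

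Most interferon-stimulated genes had a positive change, but few had groups that stood apart. Of 38 listed 37 were tested, 30 had a positive change, 2 were higher and 0 lower, and the median was 0.20. Over all genes 66.2% were positive, 8.19% higher and 2.42% lower. Both JOA libraries lay above both controls for 6 of the 37, a smaller share than the 32.5% of all genes. IFI35 was at 8.95 and 7.19 TPM in the controls and 15.2 and 12.6 TPM with JOA (log2 change 0.72, adjusted p = 0.278), and the GTPase GBP2 was at 8.28 and 5.86 against 10.8 and 12.4 TPM. The libraries numbered 1 were higher than those numbered 2 in both groups for 33 of the 37: the listed members summed to 1702 and 1204 TPM in the controls and 2188 and 1279 TPM with JOA. OAS1, a sensor of double-stranded RNA, showed it at 51.2 and 24.1 TPM against 82.7 and 33.6 TPM. ISG15, a ubiquitin-like protein, was at 92.2 and 56.8 against 126.8 and 50.7 TPM. In both genes the spread within a group was wider than the difference between groups. The list's median was -0.05 without JOA 1 and -0.02 without control 2, so its sign rests on those libraries. Among 27 members with a promoter in the table, 15 held the interferon core.

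**Figure D2:**
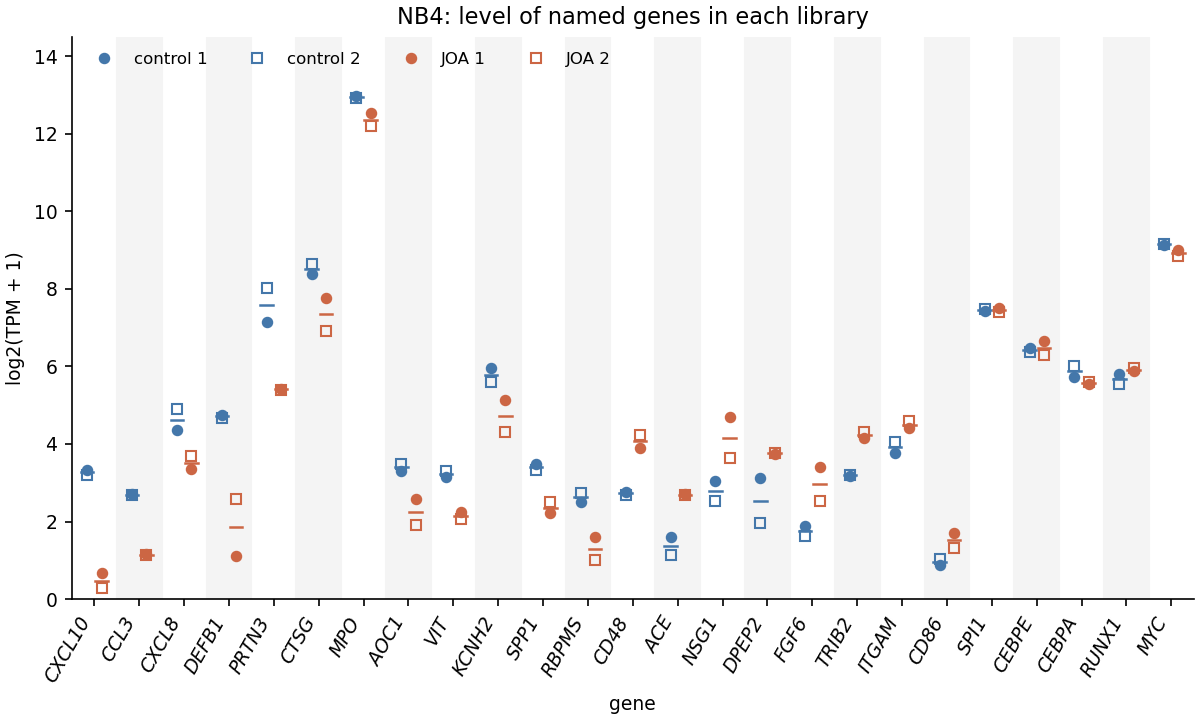
Level of 25 named genes in each NB4 library as log2(TPM + 1) (vertical axis), with control libraries in blue, JOA libraries in orange, replicate 1 as filled circles, replicate 2 as open squares, and short lines at the group means. The 2 JOA libraries lie below both controls for CXCL10 to RBPMS and above both for CD48 to CD86, while SPI1 and CEBPE overlap.

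Primary granule genes were lower with JOA as a group, although none passed. Of 20 listed 18 were tested, 16 had a negative change, 8 were lower and 0 higher, and the median was -0.46. The size of the median depended on the library, at -0.23 without JOA 2 and -0.66 without JOA 1. Over all genes 2.42% were lower and 8.19% higher. ELANE, 1 of the 8 lower, passed the filter through the controls alone, at 1.00 and 1.59 against 0.409 and 0.0786 TPM. In bulk RNA, fewer cells of a stage and less RNA per cell cannot be told apart. PRTN3, the serine protease proteinase 3, was at 141.1 and 256.9 TPM in the controls and 41.9 and 41.0 TPM with JOA (log2 change -2.17, SE 0.24, adjusted p = 0.0954). The controls differed widely from each other and the treated libraries hardly at all. PRTN3 passed when genes under 5 TPM were left out (adjusted p = 0.0165) and when only protein-coding transcripts were summed (adjusted p = 0.00787). It did not pass under median-ratio scaling (adjusted p = 0.151) or with no filter (adjusted p = 0.517). Nor did it without the variance trend (adjusted p = 0.172) or with a pseudocount of 0.1 (adjusted p = 0.132). Its change was -2.60 without control 1 and -1.74 without control 2. CTSG, the protease cathepsin G, was at 335.3 and 395.7 TPM against 217.5 and 119.6 TPM (log2 change -1.17, adjusted p = 0.202). The change of CTSG was -0.74 without JOA 2 and -1.60 without JOA 1.

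MPO was at 7983 and 7693 TPM in the controls and 5886 and 4679 TPM with JOA (log2 change -0.58, SE 0.15, adjusted p = 0.276). It held more TPM than any other member of the list, and JOA 2 was lower than JOA 1, as it was for CTSG. The same order held for AZU1, an antimicrobial heparin-binding protein, at 188 and 171 TPM against 155 and 93.3 TPM, and for PRG2, an eosinophil granule protein, at 684.8 and 439.2 against 377.3 and 231.3 TPM. MS4A3, a membrane protein of promyelocytes, was at 171 and 158 TPM against 113 and 90.8 TPM, and RNASE2 at 242.7 and 272.3 against 216.8 and 179.3 TPM. By role, the 6 proteases had a median of -0.73, the 7 peroxidase and antimicrobial genes -0.38, and the 5 others -0.25. The members nearest to 0 were CTSC (0.08), SERPINB1 (0.02), LYZ (-0.02) and EPX (-0.07). The summed level of the list was 12230 and 12060 TPM in the controls and 9334 and 7557 TPM with JOA, with no overlap.

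Genes of later granules were mostly at or near 0 TPM. Of 15 listed, 5 passed the filter: LTF, LCN2, CRISP3 and MMP8, which mark the secondary and tertiary granules of mature cells, were listed at 0 in at least 3 libraries. MMP25, a membrane metalloprotease of tertiary granules, was at 13.1 and 16.7 TPM in the controls and 25.6 and 26.7 TPM with JOA (log2 change 0.78, adjusted p = 0.201). FCN1, a lectin of the same granules, was at 7.32 and 9.29 TPM against 12.6 and 16.9 TPM. Both JOA libraries were above both controls for these 2 genes, while MMP9, at 119 and 147 against 138 and 211 TPM, overlapped. The secondary granule genes tested were CHI3L1, at 15.0 and 16.2 against 10.9 and 13.1 TPM, and PGLYRP1, at 1.98 and 3.41 against 2.38 and 1.83 TPM, and neither had an unadjusted p under 0.05.

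The phagocyte oxidase makes superoxide from NADPH once its membrane and cytosolic subunits meet. Of 6 genes tested out of 7, 4 were higher and 0 lower, where 8.19% and 2.42% of all genes were, with a median of 0.33. NCF4, a cytosolic subunit, was at 11.7 and 15.1 TPM in the controls and 19.6 and 23.0 TPM with JOA (log2 change 0.64, adjusted p = 0.296). CYBB, the catalytic membrane subunit, was at 43.2 and 43.4 TPM against 52.0 and 71.7 TPM, the GTPase RAC2 at 214.4 and 209.8 against 260.0 and 265.7 TPM, and the proton channel HVCN1 at 72.6 and 76.1 against 93.7 and 97.5 TPM. The groups did not overlap in these 4 genes. CYBA, the partner of CYBB in the membrane, was at 747.8 and 738.6 TPM against 788.4 and 548.6 TPM and overlapped, and NCF1 has near-identical pseudogenes that make its value uncertain. Under median-ratio scaling 1 of the 6 stayed higher at the unadjusted p, and the median was 0.23.

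Of 26 myeloid surface receptors tested out of 38, 9 were higher and 0 lower, with a median of 0.21. Over all genes 8.19% were higher and 2.42% lower. FCER1G, the signalling chain of Fc receptors, was at 29.3 and 28.5 TPM in the controls and 55.3 and 62.5 TPM with JOA (log2 change 1.00, SE 0.12, adjusted p = 0.0954). It passed when genes under 5 TPM were left out (adjusted p = 0.0457) and with protein-coding transcripts alone (adjusted p = 0.00787). It did not pass under median-ratio scaling (adjusted p = 0.179) or with no filter (adjusted p = 0.365). Nor did it without the variance trend (adjusted p = 0.172) or with a pseudocount of 0.1 (adjusted p = 0.144). The integrin ITGAM, or CD11b, used as a maturation marker of NB4, was at 12.7 and 15.6 TPM against 20.2 and 23.2 TPM (log2 change 0.58, SE 0.16, adjusted p = 0.305). ITGAX, or CD11c, was at 2.59 and 2.75 TPM against 3.58 and 7.04 TPM. CR1, a complement receptor, was at 3.29 and 2.63 TPM against 5.16 and 6.15 TPM, and TLR1, a sensor of bacterial lipopeptides, at 6.33 and 4.63 against 9.58 and 12.1 TPM.

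Other receptors of the lineage were also among the 9. CD33, a myeloid antigen, was at 58.4 and 49.8 TPM in the controls and 72.2 and 75.4 TPM with JOA, CSF3R, the receptor for granulocyte colony-stimulating factor, at 51.7 and 36.9 against 73.1 and 59.7 TPM, and IL3RA at 6.09 and 4.08 against 7.597 and 8.12 TPM. The 6 tested antigens of the stem or progenitor group had a positive change, with overlap for CD38, CSF1R and CSF2RA. CD34 and KIT, the defining progenitor antigens, were under the filter, CD34 at 0.0893 TPM or less and KIT at 1.05 and 0.743 against 0.995 and 0.980 TPM. Both JOA libraries were above both controls for 13 of the 26 and below for 1, TREM1, at 5.24 and 6.68 against 4.35 and 3.83 TPM. Over all genes 32.5% were above and 11% below. CD86, a costimulatory ligand that often marks maturing NB4 cells, was at 0.850 and 1.06 TPM against 2.26 and 1.51 TPM (log2 change 0.55, adjusted p = 0.507). CD14, FPR1, FPR2 and 9 other listed receptors were under the filter. Under median-ratio scaling the list had 7 higher and 1 lower and a median of 0.12.

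Lipid mediator and inflammasome genes held some of the wider differences at low level. ALOX5 and ALOX5AP, the enzyme and its partner protein that start leukotriene synthesis, were at 0.586 and 0.496 against 2.18 and 2.28 TPM and at 2.06 and 3.82 against 6.11 and 8.30 TPM (adjusted p = 0.246 and 0.277). TBXAS1, thromboxane synthase, was at 74.9 and 72.8 TPM in the controls and 101 and 115 TPM with JOA (log2 change 0.54, adjusted p = 0.201). The groups did not overlap for these 3. The list had 8 tested, with a median of 0.22. Of these, 3 were higher and 0 lower, where 8.19% and 2.42% of all genes were. ALOX5, 1 of the 3 higher, passed the filter through the JOA libraries alone. LTC4S, also in the list, was at 12.6 and 8.23 against 12.03 and 3.89 TPM. NLRP1, an inflammasome sensor, was at 5.97 and 3.81 TPM against 11.7 and 10.7 TPM (log2 change 1.07, adjusted p = 0.201). The other inflammasome genes tested lay between -0.07 and 0.25, among them CASP1 at 22.8 and 24.4 against 25.9 and 30.9 TPM.

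The transcription factors that govern this lineage gave no call. Of 24 myeloid factors 21 were tested, with 9 positive, 12 negative and a median of -0.02, and KLF6 was the 1 at an unadjusted p under 0.05, at 10.6 and 13.1 against 14.7 and 17.2 TPM. SPI1, or PU.1, was at 171.9 and 176.1 TPM in the controls and 179.7 and 167.9 TPM with JOA (log2 change -0.00, SE 0.10). CEBPE, needed for later granules, was at 88.5 and 81.6 TPM against 99.5 and 77.9 TPM (log2 change 0.05, SE 0.14), and its sign differed under 4 of 12 alternatives, as that of SPI1 did under 2. Both genes overlapped between groups. CEBPA was at 52.1 and 63.4 TPM against 46.0 and 47.5 TPM (log2 change -0.29, adjusted p = 0.480), and RUNX1 at 54.8 and 45.6 against 57.6 and 61.2 TPM (log2 change 0.24, adjusted p = 0.539).

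Retinoic acid receptor genes and their targets gave no call either. RARA was at 45.3 and 49.4 TPM in the controls and 54.5 TPM in both JOA libraries (log2 change 0.20, adjusted p = 0.560), and PML at 52.7 and 48.2 against 57.8 and 52.2 TPM. Both take part in the fusion of this line, and the deposited rows do not tell reads of the fusion from those of the normal genes. Of 20 genes in the list, 11 were tested, 0 were higher or lower at an unadjusted p under 0.05, and the median was 0.12 (0.02 under median-ratio scaling). CYP26A1, RARB and TGM2, known targets of retinoic acid, were under the filter, at 0.451 TPM or less in every library. CD38 was at 7.98 and 17.5 TPM against 11.5 and 13.9 TPM.

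Genes of mitosis lay on the higher side. All 43 tested had a positive change, 26 were higher and 0 lower, 36 had both JOA libraries above both controls, and the median was 0.32. Over all genes 66.2% were positive, 8.19% higher and 2.42% lower, and 32.5% had both JOA libraries above. HMMR, a spindle protein, was at 26.8 and 30.3 TPM in the controls and 41.9 and 41.6 TPM with JOA (log2 change 0.54, SE 0.12, adjusted p = 0.246). PRC1, which bundles the central spindle, was at 115 and 107 TPM against 142 and 159 TPM, and the kinase NEK2 at 18.1 and 16.7 against 24.4 and 26.6 TPM. TOP2A, which untangles chromosomes, was at 98.1 and 81.4 TPM against 118.0 and 133.3 TPM, and MKI67, the proliferation antigen Ki-67, at 61.2 and 63.4 against 82.4 and 78.9 TPM. None of these passed, but the groups stayed apart in each. The 17 motor and spindle genes had a median of 0.41, the 12 kinases and cyclins 0.27, and the 14 checkpoint, chromosome and exit genes 0.32. CCNA2, at 81.3 and 88.04 against 86.1 and 86.4 TPM, and CDC20, at 101 and 148 against 140 and 120 TPM, had the smallest differences. FAM83D overlapped between groups, as control 1 was listed near 0 and control 2 at 8.95 TPM, against 6.06 and 15.7 TPM with JOA. Under median-ratio scaling 41 of 43 stayed positive, 11 were higher, and the median was 0.22.

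DNA replication genes lay on the other side. Of 45 tested, 39 had a negative change, 5 were lower and 0 higher, 24 had both JOA libraries below both controls, and the median was -0.15. Over all genes 2.42% were lower and 8.19% higher, and 11% had both JOA libraries below. E2F1, which turns on the genes of S phase, was at 63.4 and 59.6 TPM in the controls and 51.6 and 47.2 TPM with JOA (log2 change -0.31, SE 0.11, adjusted p = 0.409). MCM2 and MCM7, subunits of the replicative helicase, were at 158 and 161 against 139 and 128 TPM and at 514.8 and 533.1 against 460.1 and 433.7 TPM. GINS2, another helicase part, was at 44.6 and 47.8 TPM against 37.0 and 38.6 TPM, and the clamp loader subunit RFC2 at 77.2 and 86.6 against 67.0 and 67.7 TPM. These 5 were small differences with no overlap, the largest that of E2F1. All 16 licensing and helicase genes were negative (median -0.21), against 13 of 14 polymerase and clamp genes (median -0.09), while CCNE1, the G1/S cyclin, was at 8.34 and 8.59 against 11.9 and 9.24 TPM. Under median-ratio scaling 10 were lower and the median was -0.24.

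Among 5 inhibitors of cyclin-dependent kinases, 2 were higher and 0 lower, where 8.19% and 2.42% of all genes were. CDKN2D was at 24.0 and 20.5 TPM in the controls and 32.2 and 28.98 TPM with JOA, and CDKN1C at 0.932 and 0.580 against 2.51 and 1.80 TPM (adjusted p = 0.350 and 0.353). CDKN1C passed the filter through the JOA libraries alone, so its place in the count rests on the group where it was high. CDKN1A, or p21, was at 10.8 and 13.1 TPM against 9.47 and 10.1 TPM (log2 change -0.26, SE 0.17, adjusted p = 0.614). CCND1, which pairs with CDK4 and CDK6 in G1, was at 14.4 and 14.0 TPM against 13.3 and 8.46 TPM. Of 17 p53 target genes tested, 3 were higher and 0 lower, where 8.19% and 2.42% of all genes were. The list's median was 0.12, near the 0.085 of all genes. FAS and GADD45A were among the 3, at 8.34 and 7.96 against 11.6 and 11.9 TPM and at 10.2 and 9.97 against 15.99 and 13.3 TPM, whereas MDM2 was at 25.9 and 25.4 against 27.5 and 30.0 TPM.

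**Figure D3:**
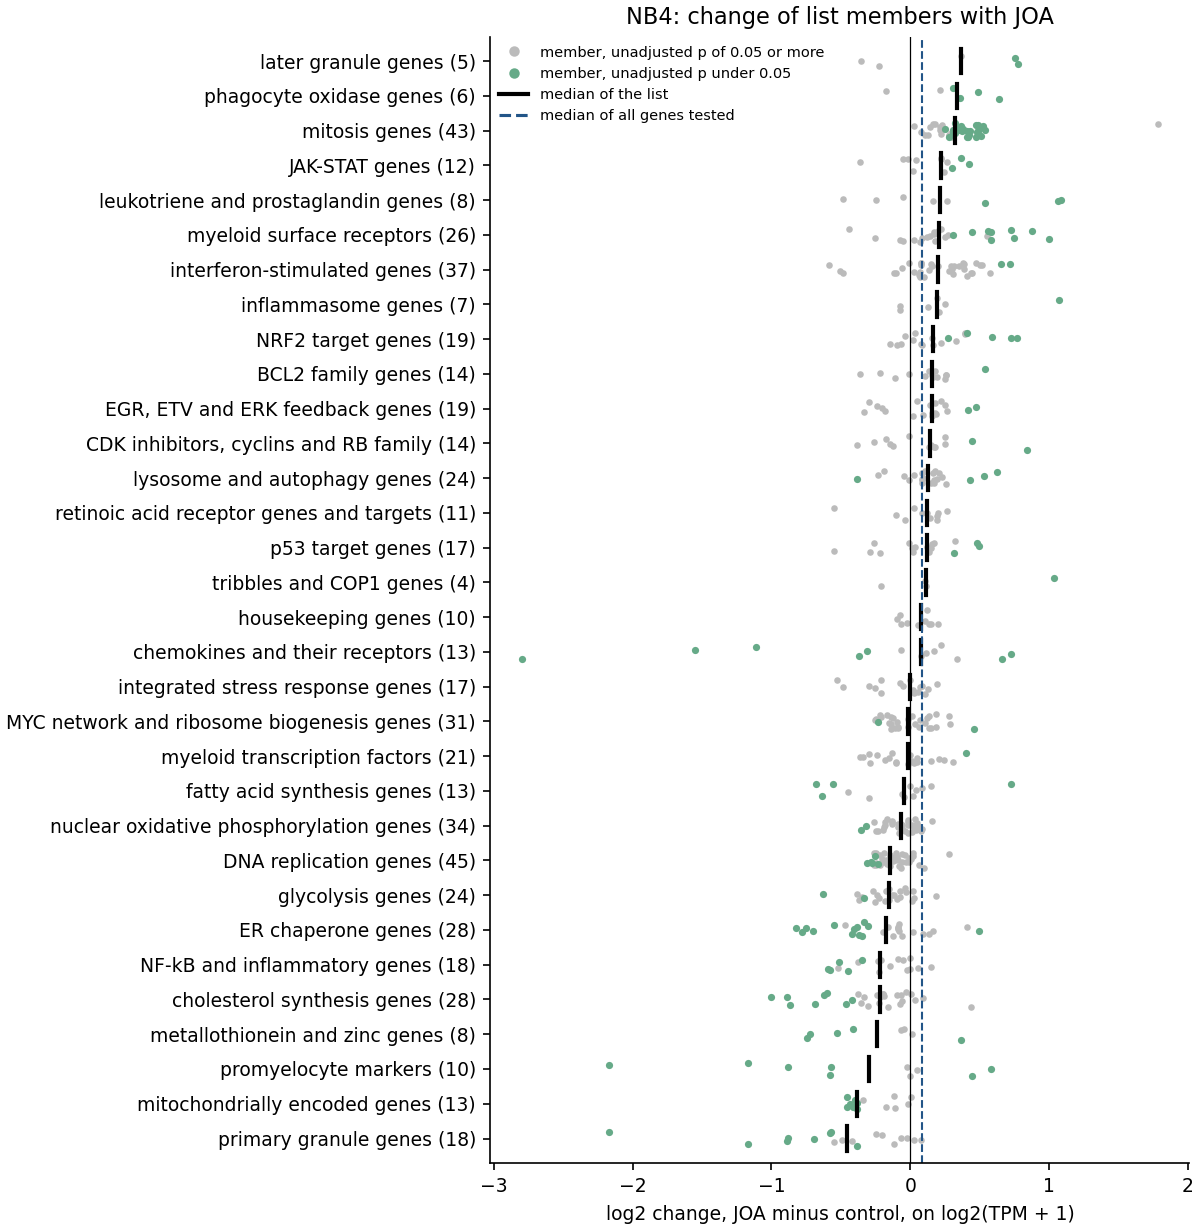
Log2 change of each tested member (JOA minus control, horizontal axis) for each gene list with at least 4 members tested, with the number tested in brackets, green points at an unadjusted p under 0.05, a black bar at each list's median and a dashed line at the median of all genes, 0.085. Mitosis genes (median 0.32) lie to the right of 0 throughout, and primary granule genes (median -0.46) and mitochondrially encoded genes (median -0.38) lie at the other end.

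Cholesterol synthesis genes were lower with JOA, most of all against control 2. These genes share control by the SREBP factors, which sense sterols in the endoplasmic reticulum (ER). Of 28 tested out of 29, 24 had a negative change, 8 were lower and 0 higher, 13 had both JOA libraries below both controls, and the median was -0.22. Over all genes 2.42% were lower and 8.19% higher, and 11% had both JOA libraries below. HMGCS1, a synthase early in the pathway, was at 63.7 and 104.6 TPM in the controls and 43.7 and 37.2 TPM with JOA (log2 change -1.001, SE 0.22, adjusted p = 0.215). INSIG1, which retains the SREBP escort, was at 97.4 and 152.9 TPM against 70.8 and 62.6 TPM, and DHCR7, an enzyme of the last steps, at 57.6 and 101.9 against 42.9 and 39.1 TPM. Control 2 exceeded control 1 by more than control 1 exceeded the JOA libraries in TPM in each of the 3. SREBF1 differed from them, with controls closer to each other, at 129.7 and 147.6 TPM against 89.7 and 92.4 TPM (log2 change -0.60, SE 0.11, adjusted p = 0.173). Without control 2 the list's median was -0.05, and without control 1 it was -0.42.

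Control 2 was also the highest library for the fatty acid enzymes SCD, FADS1, FADS2, FASN, ACLY and ACACA, though the ACACA controls were at 30.6 and 30.9 TPM. It was the lowest library for ELOVL1, ACSL3 and ACSL4, and ELOVL6 was highest in control 1. SCD and FADS2, both desaturases, were at 165.0 and 244.7 against 134.9 and 123.3 TPM and at 166.3 and 253.1 against 135.5 and 120.0 TPM (adjusted p = 0.305 and 0.304). ME1, which supplies NADPH, was on the other side, at 5.73 and 6.48 TPM in the controls and 9.59 and 12.01 TPM with JOA. Of 13 tested, 1 was higher and 3 lower, where 8.19% and 2.42% of all genes were, with a median of -0.05.

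Chaperones of the ER were on the lower side, while its stress sensors and factors had a median near 0. Of 28 genes tested, 12 were lower and 1 higher, 15 had both JOA libraries below both controls, and the median was -0.18. Over all genes 2.42% were lower and 8.19% higher, and 11% had both JOA libraries below. CALR, which folds glycoproteins, was at 1947 and 2398 TPM in the controls and 1376 and 1197 TPM with JOA (log2 change -0.75, SE 0.14, adjusted p = 0.173). HSPA5, the main HSP70 of the ER, was at 123.4 and 231.0 TPM against 103.5 TPM in both JOA libraries, and SDF2L1 at 25.7 and 37.3 against 20.2 and 14.4 TPM. P4HB, a disulfide isomerase, was at 790.8 and 934.7 TPM against 658.7 and 623.4 TPM. Control 2 was again above control 1 in each of these 4. DERL2, part of the degradation channel, had nearly equal controls, at 38.9 and 37.0 TPM against 25.5 and 25.9 TPM (log2 change -0.55, adjusted p = 0.215). All 11 chaperones were negative (median -0.38) and 5 of 6 disulfide isomerases (median -0.35). The 5 sensors and factors had a median of 0.02, with 1 lower: XBP1, at 109 and 122 TPM against 94.9 and 91.2 TPM. ERN1, the kinase that splices XBP1 RNA, was at 2.93 and 1.59 against 2.82 and 3.70 TPM. EDEM1, which sends misfolded glycoproteins to degradation, was higher, at 20.3 and 15.3 against 23.4 and 27.3 TPM.

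Of 17 integrated stress response genes tested, 0 were higher or lower at an unadjusted p under 0.05 and the median was -0.00. ATF4, its factor, was at 477.9 and 448.4 TPM in the controls and 478.6 and 520.8 TPM with JOA, and DDIT3, or CHOP, at 19.6 and 22.2 against 19.1 and 16.7 TPM. TRIB3 was at 61.4 and 70.1 TPM against 56.7 and 56.6 TPM.

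Metallothioneins bind zinc and copper and are induced through the metal sensor MTF1. Of 5 tested, all had a negative change and 4 were lower, where 2.42% of all genes were, with a median of -0.53. MT2A was at 301.4 and 334.9 TPM in the controls and 207.8 and 178.1 TPM with JOA (log2 change -0.72, SE 0.11, adjusted p = 0.163). MT1G was at 164 and 192 TPM against 112 and 99.6 TPM (log2 change -0.74, SE 0.12, adjusted p = 0.163), MT1F at 53.5 and 59.4 against 45.0 and 33.5 TPM, and MT1X at 124 and 151 against 109 and 96.2 TPM. The groups stood apart in these 4 and overlapped in MT1E. Metallothionein genes are close copies of one another, so the split of reads between them is uncertain. The zinc importer SLC39A10 lay on the other side, at 28.2 and 24.1 TPM against 36.0 and 32.0 TPM, and MTF1 itself was at 4.00 and 4.39 against 3.78 and 4.12 TPM.

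Promoters of 1 gene from each of these 3 lists are shown, because each list has a known response element: MT2A on chr16:56608334-56608583 (plus strand), HMGCS1 on chr5:43313413-43313662 (minus strand) and CALR on chr19:12938359-12938608 (plus strand). Capitals mark the metal response element TGCNCNC in MT2A and the ER stress element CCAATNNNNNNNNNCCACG in CALR, on either strand.
MT2A: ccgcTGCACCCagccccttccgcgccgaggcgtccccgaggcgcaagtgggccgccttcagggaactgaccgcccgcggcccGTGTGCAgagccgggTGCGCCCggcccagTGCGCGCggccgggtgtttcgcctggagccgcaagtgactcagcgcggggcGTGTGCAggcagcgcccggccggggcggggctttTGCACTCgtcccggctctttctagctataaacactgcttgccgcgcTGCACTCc
HMGCS1: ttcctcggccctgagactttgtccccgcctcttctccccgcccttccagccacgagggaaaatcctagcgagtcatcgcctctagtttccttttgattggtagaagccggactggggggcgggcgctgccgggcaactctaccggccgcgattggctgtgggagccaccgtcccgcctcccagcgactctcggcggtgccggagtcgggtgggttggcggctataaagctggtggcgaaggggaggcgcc
CALR: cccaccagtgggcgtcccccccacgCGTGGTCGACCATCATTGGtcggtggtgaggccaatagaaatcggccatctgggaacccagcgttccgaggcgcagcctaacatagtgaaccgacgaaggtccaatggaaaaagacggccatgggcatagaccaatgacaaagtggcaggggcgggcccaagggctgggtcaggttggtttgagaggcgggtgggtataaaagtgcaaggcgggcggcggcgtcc
MT2A held 7 matches of the metal element, from 246 to 2 bases before the start, and 48.4% of the 27305 promoters held at least 1. CALR held the ER stress element on its other strand, 225 to 207 bases before the start, a motif found in 0.0806% of the promoters and in 6 of 26 members of the ER list: HSPA5, HSP90B1, CALR, CANX, CRELD2 and XBP1. The sterol element TCACNCCAC was not among the letters of the HMGCS1 window, and it was in 0.875% of the promoters and in 1 of 22 of the cholesterol list, SREBF2. The search took this 1 pattern in these windows alone. A sterol element with other letters or outside the window would be missed, so its absence here does not show that a gene lacks one.

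**Figure D4:**
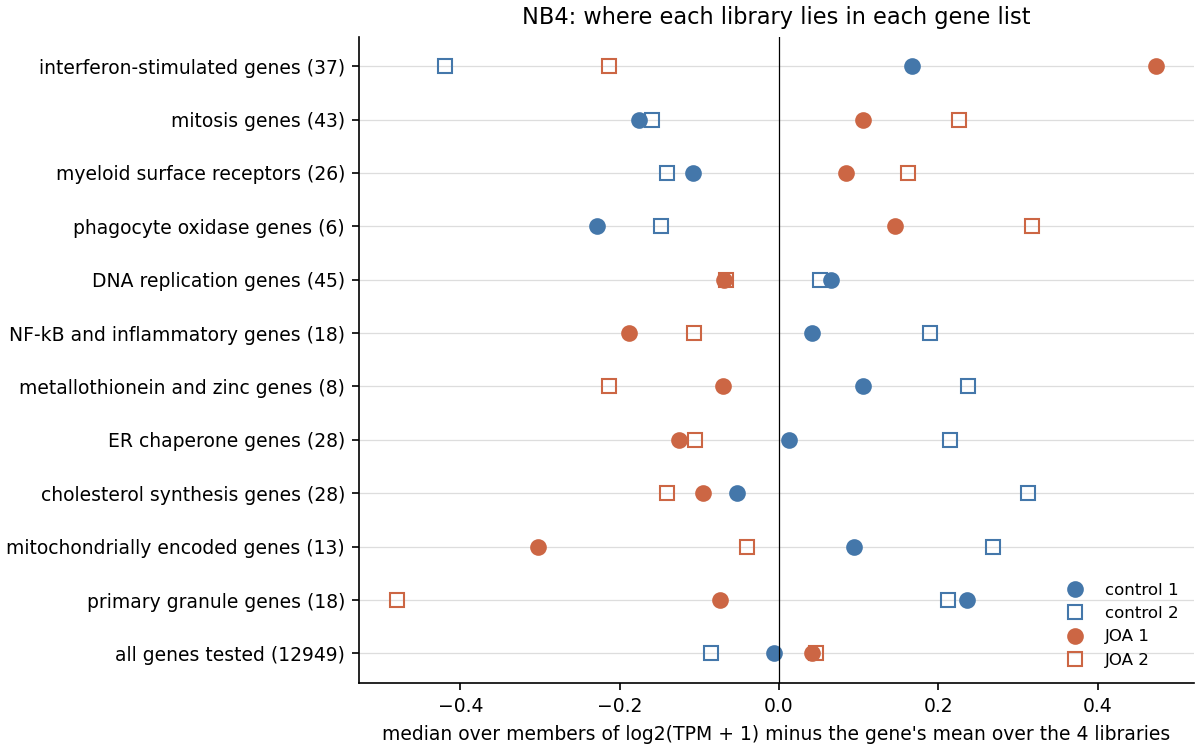
Position of each library in 11 lists and over all genes, as the median over members of log2(TPM + 1) minus the gene's mean over the 4 libraries (horizontal axis), with controls in blue, JOA in orange, replicate 1 filled and replicate 2 open. Mitosis genes separate the groups, from -0.18 and -0.16 in the controls to 0.11 and 0.23 with JOA. All genes together also separate them, from -0.006 and -0.085 to 0.041 and 0.047. Most lists do so: of 36, the median was above both controls in both JOA libraries for 18 and below for 10. Control 2 stands alone at 0.31 in the cholesterol list, and libraries numbered 1 lie above those numbered 2 in the interferon list.

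Mitochondrially encoded genes, which code for core subunits of the respiratory chain, had a negative change for 12 of 13 and a median of -0.38. At an unadjusted p under 0.05, 7 were lower, as 2.42% of all genes were. MT-CO3, a subunit of cytochrome oxidase, was at 21000 and 24450 TPM in the controls and 15270 and 17870 TPM with JOA (log2 change -0.46, adjusted p = 0.402), and MT-ATP8 at 7144 and 7398 against 5160 and 5443 TPM. MT-CYB, at 4138 and 3678 against 3873 and 3831 TPM, and MT-ND1, at 10880 and 12010 against 9789 and 11450 TPM, overlapped. MT-ATP8 with MT-ATP6 and MT-ND4L with MT-ND4 overlap on the genome, so reads there cannot be assigned with certainty. Nuclear genes of oxidative phosphorylation had a median of -0.07, with 0 higher and 2 lower of 34. Because this share of TPM moves with the groups, all lists were refitted with mitochondrial transcripts removed and the rest rescaled. The median was then 0.27 for mitosis, -0.20 for DNA replication, -0.52 for primary granules, -0.28 for cholesterol synthesis, -0.23 for ER chaperones and 0.16 for surface receptors, against 0.04 for all genes. Glycolysis genes had a median of -0.15, with 0 higher and 2 lower of 24: PFKM, a phosphofructokinase, was at 16.6 and 15.1 against 10.2 and 9.61 TPM, and the isomerase GPI at 209.1 and 229.2 against 167.4 and 180.0 TPM.

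MYC was at 563.2 and 574.4 TPM in the controls and 510.2 and 457.5 TPM with JOA (log2 change -0.23, SE 0.10, adjusted p = 0.468). MXD3, which competes with MYC for MAX, was at 39.9 and 30.4 TPM against 53.2 and 43.8 TPM. The groups did not overlap for either gene. Ribosome biogenesis genes, well known targets of MYC, had a median of -0.10 over 22 tested, with 0 higher or lower, for example FBL at 164.3 and 183.8 against 160.2 and 152.3 TPM.

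TRIB2, a pseudokinase that acts with the ligase COP1 on C/EBPα, was at 8.11 and 8.27 TPM in the controls and 16.9 and 18.7 TPM with JOA (log2 change 1.03, SE 0.15, adjusted p = 0.121). Replicates differed little beside the distance between the groups. Its relative TRIB1, at 11.3 and 11.6 against 12.6 and 12.1 TPM, and COP1, at 21.1 and 19.3 against 22.02 and 21.9 TPM, differed far less. DUSP6, a phosphatase that ERK induces against itself, was at 156.5 and 161.3 TPM against 193.0 and 253.7 TPM, and ETV4 at 52.1 and 49.4 against 66.2 and 69.8 TPM (adjusted p = 0.316 and 0.291). All 10 phosphatases and inhibitors of the ERK pathway tested had a positive change, against 66.2% of all genes, and 1 of the 10 was higher. Of 7 immediate early genes 5 were negative and 0 were lower, EGR1 at 53.3 and 44.4 against 46.6 and 33.2 TPM. STAT3, STAT5B and JAK1 were the 3 of 12 JAK-STAT genes that were higher, where 8.19% of all genes were. STAT5B was at 45.6 and 40.3 TPM in the controls and 51.6 and 59.7 TPM with JOA.

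Antioxidant genes under NRF2 had 5 higher and 0 lower of 19, where 8.19% and 2.42% of all genes were. Their median was 0.16, and 0.06 under median-ratio scaling. HMOX1, heme oxygenase, was at 0.381 and 1.03 TPM in the controls and 1.60 and 2.14 TPM with JOA, and the quinone reductase NQO1 at 27.5 and 46.2 against 49.96 and 58.9 TPM (adjusted p = 0.428 and 0.429). The groups did not overlap for these, but GCLM and GCLC, the subunits of the glutathione-forming ligase, were at 6.50 and 7.18 against 7.98 and 6.59 TPM and at 21.8 and 22.9 against 22.2 and 23.6 TPM. Of 24 lysosome and autophagy genes, 3 were higher and 1 lower, where 8.19% and 2.42% of all genes were. TFE3, a factor that drives lysosome genes, was at 18.6 and 18.0 TPM against 29.6 and 27.9 TPM (log2 change 0.62, adjusted p = 0.201), WIPI1 at 10.4 and 9.45 against 14.3 and 15.2 TPM, and the protease CTSD at 98.2 and 110.6 against 85.1 and 74.7 TPM. Of 14 BCL2 family genes 1 was higher, a share near that of all genes. It was the BH3-only gene BMF, at 6.34 and 7.34 against 9.03 and 11.8 TPM, while MCL1 overlapped at 68.3 and 59.6 against 67.4 and 75.3 TPM.

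Genes with the largest log2 changes were named by rule, as the 12 largest in each direction among 1125 genes with a gene symbol. These had an unadjusted p under 0.05, no overlap and a mean of at least 5 TPM in the higher group. Genes without a symbol were not ranked. On the lower side the largest was DEFB1, an antimicrobial defensin, at 25.8 and 24.6 TPM in the controls and 1.18 and 5.03 TPM with JOA (log2 change -2.85, SE 0.41, adjusted p = 0.105). JOA 1 and JOA 2 differed from each other more than the controls did. DEFB1 passed when genes under 5 TPM were left out (adjusted p = 0.0457) and with protein-coding transcripts alone (adjusted p = 0.0279). It did not pass under median-ratio scaling (adjusted p = 0.182) or with no filter (adjusted p = 0.522). Nor did it without the variance trend (adjusted p = 0.261) or with a pseudocount of 0.1 (adjusted p = 0.211). Its change was -2.12 without JOA 1 and -3.59 without JOA 2. RBPMS was at 4.68 and 5.72 TPM against 2.03 and 1.01 TPM, and most of its level in the controls was RBPMS-212, a processed transcript of 315 bases that is not annotated as coding. RBPMS-212 was at 3.70 and 4.46 TPM in the controls and at 0.674 and 0 TPM with JOA. SPP1, or osteopontin, was at 10.1 and 9.06 against 3.66 and 4.63 TPM. KCNH2, the hERG potassium channel, was at 60.7 and 47.4 TPM against 34.3 and 18.7 TPM. AOC1, which breaks down histamine, was at 8.93 and 10.2 TPM against 4.96 and 2.73 TPM, and VIT at 7.90 and 8.83 against 3.74 and 3.19 TPM. H2AC20, a histone gene, differed widely within groups, at 3.88 and 8.70 TPM against 1.12 and 3.23 TPM. The other 5 of these 12, CXCL10, CCL3, CXCL8, PRTN3 and CTSG, are described above.

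On the higher side CD48, a ligand of the receptor 2B4 on lymphoid and myeloid cells, was at 5.81 and 5.46 TPM in the controls and 14.0 and 17.7 TPM with JOA (log2 change 1.34, SE 0.18, adjusted p = 0.0954). It passed when genes under 5 TPM were left out (adjusted p = 0.0457) and with protein-coding transcripts alone (adjusted p = 0.0233). It did not pass under median-ratio scaling (adjusted p = 0.179) or with no filter (adjusted p = 0.505). Nor did it without the variance trend (adjusted p = 0.132) or with a pseudocount of 0.1 (adjusted p = 0.147). ACE, the angiotensin-converting peptidase, was at 2.05 and 1.18 TPM against 5.54 and 5.42 TPM (log2 change 1.33, adjusted p = 0.173). NSG1, whose protein is known from neuronal endosomes, was at 7.21 and 4.75 TPM against 24.9 and 11.4 TPM. Between 98.5% and 99.3% of NSG1 in every library was NSG1-204, a processed transcript of 190 bases that is not annotated as coding. The dipeptidase DPEP2 was at 7.74 and 2.88 against 12.5 and 12.6 TPM. Replicates were far apart with JOA for NSG1 and among the controls for DPEP2. FGF6, a growth factor, was at 2.68 and 2.09 TPM against 9.55 and 4.81 TPM. The other 7 are pseudogenes, near copies or a read-through: FABP5P7, RPS26P19, PRSS3P4, SEPTIN14P19, FAM30C, EIF3CL, a near copy of EIF3C, and COMMD3-BMI1. FABP5P7 was listed at or near 0 in both controls and at 4.05 and 9.85 TPM with JOA, and EIF3CL was at 3.25 and 3.79 against 10.4 and 27.2 TPM. Reads of such genes can be shared with their sources, so these values are uncertain.

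At the level of isoforms 0 of 51643 transcripts passed (0%), and the lowest adjusted p was 0.295. At an unadjusted p under 0.05 there were 3469 transcripts (6.72%). Several of the widest differences were minor isoforms that were listed near 0 in 1 group. NOP58-205, from a nucleolar protein gene, was at 18.0 and 12.4 TPM in the controls and 0.0163 and 0 TPM with JOA, and PRDX1-205 was at 7.98 and 16.3 TPM in the controls and listed at 0 in both JOA libraries. The split of reads over isoforms is the authors' estimate.

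The split between isoforms was tested for 45138 isoforms, and 0 passed (0%, lowest adjusted p 0.229), with 2459 at an unadjusted p under 0.05 (5.45%). OTUD6B, a deubiquitinase gene, had replicates close to each other: OTUD6B-201 held 13.4% and 13.6% of the gene in the controls and 47.8% and 44.6% with JOA, while OTUD6B-206 held 62.8% and 68.8% against 24.8% and 28.2% (adjusted p = 0.737 for both). These 2 transcripts are protein-coding and of nearly equal length, at 3298 and 3294 bases. RNMT-202, from the gene of the cap methyltransferase, held 60.6% and 65.6% against 34.6% and 41.9%, and TOMM40-202, from a mitochondrial import pore gene, 20.9% and 21.9% against 70.7% and 39.1%. SULT1A1, which has close paralogs, held 52.3% and 49.2% in SULT1A1-204 in the controls and 5.29% and 13.8% with JOA. By class, retained introns held 8.58% and 7.99% of TPM in the controls and 8.60% and 8.37% with JOA, and transcripts annotated for nonsense-mediated decay 2.69% and 2.67% against 2.81% and 2.89%.

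Among markers of other cell types no member passed the test. Of 7 B cell markers 3 were tested, CD79B at 13.5 and 13.7 TPM in the controls and 17.7 and 17.9 TPM with JOA, and the list summed to 20.3 and 20.8 against 25.3 and 25.2 TPM. CD3D, of the T cell receptor complex, was at 26.1 and 27.4 TPM against 31.8 and 47.3 TPM, while CD3E, CD3G and CD2 were at 0.447 TPM or less in every library, and the 7 T and NK cell markers summed to 38.98 and 35.7 against 45.5 and 56.4 TPM. The epithelial keratins KRT18 and KRT8 were at 19.4 and 22.2 against 29.5 and 31.6 TPM and at 4.61 and 5.70 against 7.68 and 8.92 TPM (adjusted p = 0.277 and 0.363), and EPCAM at 15.0 and 10.2 against 15.99 and 14.2 TPM. KRT19 was listed at 0 in every library, COL1A1, COL1A2 and COL3A1 were at 0.233 TPM or less, and this list summed to 39.4 and 38.5 against 53.5 and 55.0 TPM. Of 9 erythroid and megakaryocyte markers, ITGA2B alone passed the filter, and HBB was listed at 0 in 3 libraries. The B cell, T cell and epithelial sums were higher in both JOA libraries, and their part in the other results was not tested. Of 10 housekeeping genes 0 were higher or lower, with a median of 0.08 (-0.02 under median-ratio scaling), ACTB at 4108 and 4903 against 4394 and 4424 TPM.

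**Figure D5:**
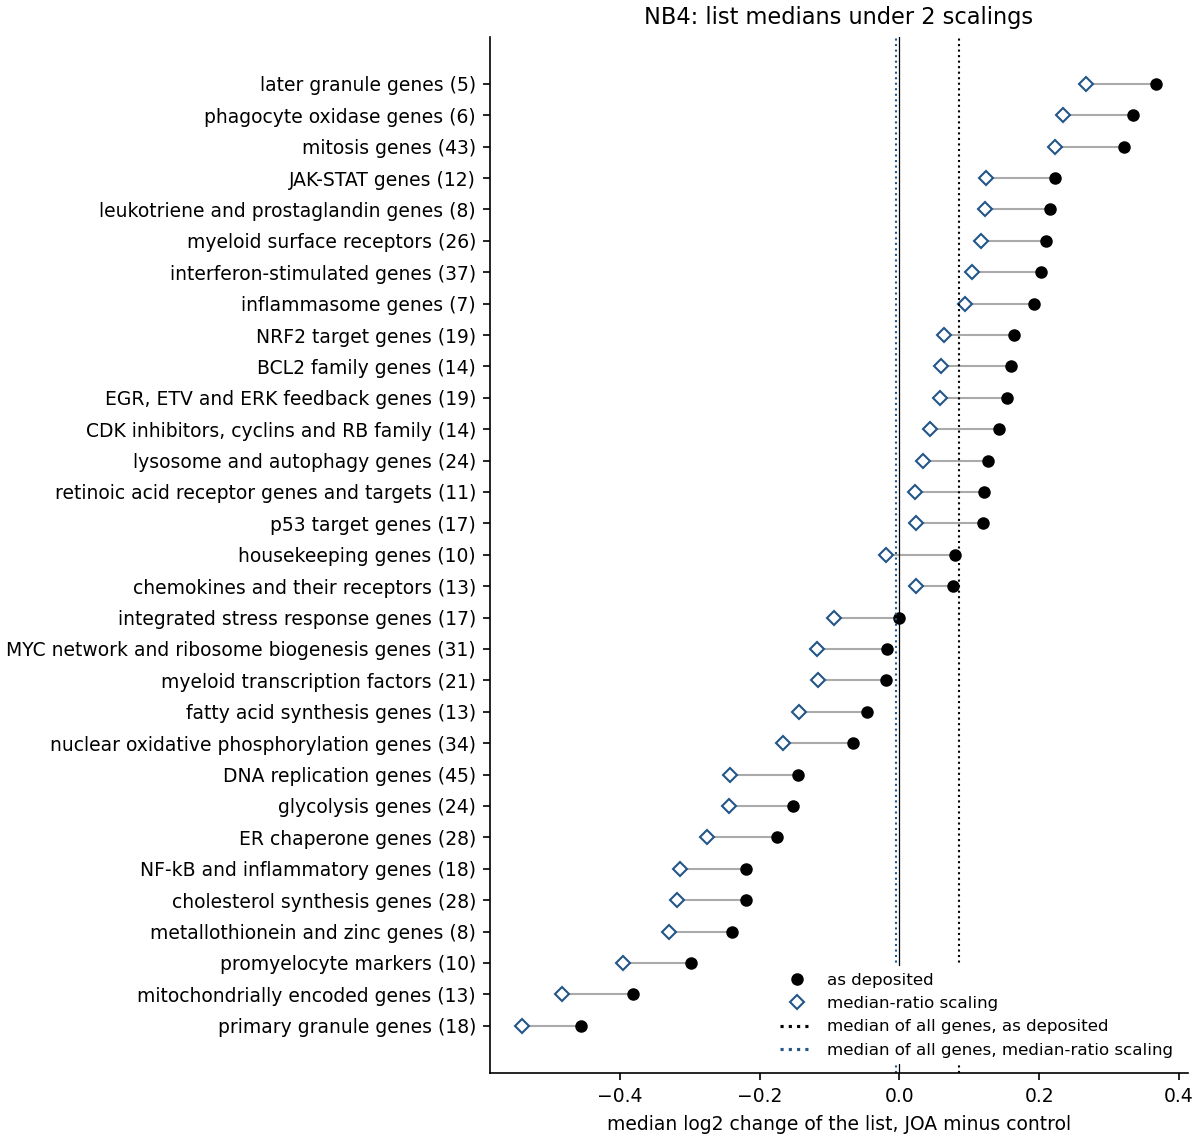
Median log2 change (JOA minus control, horizontal axis) of each list with at least 5 members tested, for the values as deposited (black circles) and after median-ratio scaling (open diamonds), with dotted lines at the medians of all genes, 0.085 and -0.005. Scaling shifts every list to the left by about the same amount, and housekeeping genes are the list whose median crosses 0.

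Median-ratio scaling moved the median of all genes from 0.085 to -0.005. The primary granule list went from -0.46 to -0.54, cholesterol synthesis from -0.22 to -0.32, mitosis from 0.32 to 0.22 and myeloid surface receptors from 0.21 to 0.12. This scaling divides each library by a constant, so a list and the median of all genes move almost together. The distance of these 4 lists from that median was bound to differ little between the 2 settings, and is no check on them. For the same reason, lists with a median near that of all genes stayed near it under both. Examples were lysosome genes (0.13 and 0.03), p53 targets (0.12 and 0.02) and the retinoic acid list (0.12 and 0.02).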

How the data were processed

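RNA of 4 NB4 libraries (2 control, 2 JOA) was sequenced with a TruSeq stranded mRNA kit, as the protocols state. HTSeq, Cufflinks, Trimmomatic and HISAT2 appear in the submitters' processing notes without roles or versions, beside hg38. The authors deposited 1 table of 121005 Ensembl transcripts for NB4. Its name says FPKM, but each column sums to 999679 to 999758, so the deposited values were taken as TPM, and depth is unknown. The Kasumi-1 libraries were not used here.

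Of the transcripts, 93.9% matched GENCODE release 29 (GRCh38) and were summed to 21972 genes. Unmatched ones held 2.91% to 3.18% of TPM. Genes or transcripts at 1 TPM or more in at least 2 libraries were tested with limma 3.58.1 (R 4.3.3, Python 3.11.15) on log2(TPM + 1) with a variance trend and no block. This filter passes a gene through the group where it is higher, and fold changes on this scale understate low genes. P-values were adjusted by Benjamini-Hochberg over all features, and calls made at 0.05. Isoform balance was tested for isoforms of genes with a mean of at least 5 TPM. The mitochondrial share had an exact permutation test.

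Genes were named by rule: a set of 14, all calls, and the 12 largest changes each way among genes with a symbol. The 8 largest transcripts each way and the members of lowest p from 36 lists were named too. COP1, isoforms and members that a sentence needed were added to these. A few members are not reported here. The members and lists were chosen with earlier results of these data known. Scripts were tested on simulated data. Alternatives covered scaling, pseudocount, filter, variance trend, transcript classes, a replicate block and leaving out each library.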

Additional observations from a re-analysis of the deposited data

How the results depend on the processing

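The count of 1 gene at an adjusted p under 0.05 was 10 with a minimum of 5 TPM, 13 with protein-coding transcripts only, 5 without the variance trend, and 0 with median-ratio scaling, no filter or a pseudocount of 0.1. It was 1 with mitochondrial transcripts removed. Leaving out 1 library gave 1 to 6, and a group left with 1 library was assumed to vary like the other. The count of higher genes at an unadjusted p was 595 and that of lower genes 589 with median-ratio scaling, and they ranged from 549 to 1592 and from 193 to 446 without 1 library. Transcripts at an unadjusted p were 1581 with a minimum of 5 TPM, 6593 with no filter, and 2109 to 3778 without 1 library, and 0 transcripts and isoform shares passed in every setting. The mitochondrial share was lower with JOA by between -4.31 and -2.36 percentage points without 1 library, with no overlap of the groups in the full set.

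Control and JOA libraries carry the same numbers, and nothing states that the numbers pair them, so the main fit had no block. Over all genes the deviations of same-numbered libraries correlated at 0.0675, a value that cannot settle whether they were paired. Replicate 1 was above replicate 2 in both groups for 33 of 37 interferon-stimulated genes. With the number as a replicate block, 150 genes passed in place of 1. Of 154 named genes and list members refitted under up to 12 alternatives, 150 kept their sign throughout. The exceptions were CEBPE, KLRD1, NCAM1 and SPI1. Most of the 154 were named for a low p or for a large change without overlap. Some alternatives, such as the replicate block, also leave the change itself as it was. The count of kept signs was thus largely set by these choices and is no measure of robustness. Which cause lies behind the shifts in the counts of calls was not tested. The depth is unknown, and 2 libraries per group limit the precision.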
